A study of Mus musculus with 8 samples.

Results

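Starvation-restricted m6A calls were defined here as merged regions that held a called m6A peak in both libraries of starved cells and in neither library of control cells, and 677 of 21168 merged regions (3.2%) met that rule. These starved-only regions lay in 641 of the 9778 genes with a peak in any library (6.56%). They were chosen by the calls themselves, so that their strength, width and absence from the control lists are given below as a description, with no test. The mirror class (control-only regions), with a peak in the 2 control libraries and none in the starved ones, held 879 regions (4.15%) in 844 genes (8.63%) and serves as the measure beside which the starved-only regions are read.

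The libraries came from wild-type C57BL/6 mouse embryonic fibroblasts (MEFs), primary cells taken from embryos 13.5 days after mating and used at 5 to 6 passages. The 8 samples formed 4 groups of 2 replicates, an immunoprecipitated (IP) and an input library for each of untreated control cells and of cells held for 2 h in medium deprived of nutrients. The study asked which transcripts gain or lose the mark when nutrients are withdrawn. The study describes the replicates as biological, and the labels do not say whether they came from separate embryos or cultures. Of 8 fibroblast markers, 6 had a peak in at least 1 library, as did 2 of 4 epithelial, 1 of 3 endothelial, 1 of 3 blood and 2 of 3 neural markers. A peak needs a methylated transcript, so these counts are a limited check of the cell type, and Col1a1 and Vim had no peak.

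N6-methyladenosine (m6A) is placed on adenosines of mRNA by a nuclear methyltransferase complex built around METTL3 and METTL14, is removed by the demethylases FTO and ALKBH5, and is bound by YTH domain proteins that alter the decay and translation of the transcript. The methyltransferase favours adenosines in the motif DRACH, of which GGAC is the most used core, and m6A is known to gather in long internal exons and around stop codons. In MeRIP-seq, an m6A antibody enriches methylated fragments of polyadenylated RNA, and a peak is a stretch where the IP library exceeds its input.

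The regions that ranked highest by the lower of their 2 fold enrichments are shown by a motif of the kind that the methyltransferase favours. Sequence was read from the spliced transcript, so a peak here means its exonic part. The GGAC nearest to the centre of that part of the stronger peak was taken, and another DRACH match only where it held no GGAC. Of the 10 highest regions, 9 could be placed on a coding transcript. Bases are given 5′ to 3′ in the sense of the transcript, from GENCODE M21 on GRCm38 (mm10), and capitals mark the motif.
Mgat4f: tttccatactgaGGACctttcccgcttcg
Bbs1: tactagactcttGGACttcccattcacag
Prkag2: tatgaattggaaGAACAtaagattgaaac
Plekhg1: ctcatgtcaacaGGACaggggcaaacggt
Zc3h6: agtcaatactgaGGACattacagaaacaa
Gpr85: atggctccacctGGACttacgggactctg
Zswim3: gatggtctttgtGGACccttcattccctc
Gm9817: gttgacgtccagGGACacgcgccagcgat
Herc4: aatgcatcctatGGACaactaggtttggg
In 8 of the 9 the peak held a GGAC, so the choice printed it whether or not another DRACH match lay nearer to the centre. The exonic part of the Prkag2 peak held 0 copies of GGAC, and its capitals mark a DRACH match instead. In DRACH, D stands for A, G or T, R for A or G, and H for A, C or T. The Prkag2 stretch lay at an end of the called region (chr5:24876704-24877026). The Herc4 peak held the most copies of GGAC, 5, and the Zswim3 peak held 1. A match is a description of the sequence and does not locate the modified base, which MeRIP-seq cannot resolve.

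These stretches lay at chr1:134390268-134390296 (+ strand) for Mgat4f, chr19:4887420-4887448 (− strand) for Bbs1, chr5:24876997-24877025 (− strand) for Prkag2, chr10:3963996-3964024 (+ strand) for Plekhg1 and chr2:129016176-129016204 (+ strand) for Zc3h6. Those of Gpr85, Zswim3, Gm9817 and Herc4 lay at chr6:13836628-13836656 (− strand), chr2:164820432-164820460 (+ strand), chr13:45078810-45078838 (+ strand) and chr10:63245915-63245943 (+ strand). The Bbs1 stretch was in the 3′ UTR, and the other 8 were in coding sequence. Each of the 9 lay within a single exon.

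Mgat4f, a gene of the N-acetylglucosaminyltransferase family that the transcript annotation lists under the older name 4933406M09Rik, had the strongest starved-only region. Its fold enrichment was 346 in starved replicate 1 and 536 in starved replicate 2, in coding sequence 688 nt before the stop codon, and the gene had no peak in either control library. Bbs1, a subunit of the BBSome that carries cargo into cilia, had 290 and 293 in the 3′ UTR, 3317 nt past the stop codon, and also had no control peak. Prkag2, a regulatory gamma subunit of the energy sensor AMPK, reached 274.46 and 234.14 in coding sequence 676 nt before the stop codon. In each of these regions the larger value of the pair was less than 2-fold above the smaller. The Mgat4f peaks measured 314 and 302 bp in a merged region of 525 bp, so similar strength there does not mean the same stretch.

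Among the other regions near the top the evenness between replicates varied. Gm9817, a predicted gene, had 311 in replicate 1 and 99.2 in replicate 2, and Gpr85, an orphan G protein-coupled receptor, had 107 and 265. Zc3h6, a CCCH zinc finger gene, had 170 and 332, and Plekhg1, a gene with a pleckstrin homology domain, had 176 and 305. The predicted gene Gm16519 had 152 and 145 and could not be placed on a coding transcript. Zswim3 had 129 and 102, and Herc4, a HECT-type ubiquitin ligase, had 98.1 and 109. The 6 highest regions in genes without any control peak were Mgat4f, Bbs1, Zc3h6, Gm16519, Gm9817 and Herc4. The nearest control peak was 427 bp from the Gpr85 region and 149 bp from the Zswim3 region, so these genes carried a called mark close by in unstarved cells.

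**Figure D1:**
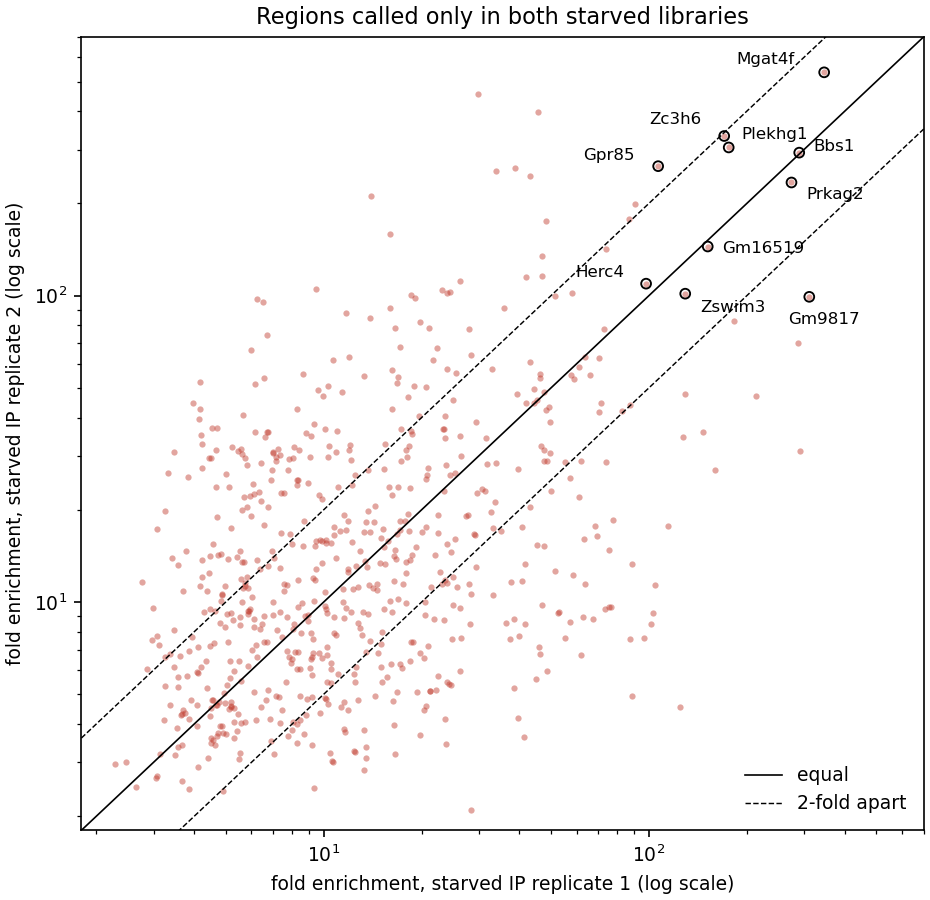
Fold enrichment of the 677 starved-only regions in starved IP replicate 1 (x axis) and replicate 2 (y axis), both on log scales, with 1 point per region, the line of equality and dashed lines at a 2-fold difference. The 10 highest regions are circled and named, and 347 regions lie between the dashed lines while 139 differ by more than 4-fold.

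Over all members the enrichment was far lower than in these examples. In starved replicate 1 the fold enrichment ran from 2.28 to 346 with a median of 10.98 and quartiles of 6.03 and 23.5. In replicate 2 it ran from 2.09 to 536 with a median of 12.05 and quartiles of 6.57 and 28.6. The mean of the 2 library medians was 11.5 ± 0.757 (SD, n = 2), against 10.9 ± 0.898 for control-only regions in their own libraries. The starved-only and control-only classes therefore differed by less than the spread between replicates.

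Starved-only peaks lay below the middle of their lists, as control-only peaks did. The median fold enrichment of all peaks was 14.58 and 14.69 in the starved lists, and regions called in all 4 libraries had medians from 16.55 to 20.3. The median member stood at percentile 39.6 of its list in replicate 1 and 43.2 in replicate 2, and the median control-only region at 43.9 and 47.6, whereas regions called in all libraries stood at percentiles from 60.4 to 64.4. Both replicates reached a fold enrichment of 4 in 587 members (86.7%), 10 in 251 (37.1%), 20 in 104 (15.4%), 50 in 24 and 100 in 8. The shares of control-only regions that reached 4, 10 and 20 were 85.1%, 36.4% and 16.9%.

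The lowest-ranked member was Zfp317, a zinc finger gene, with 28.3 in replicate 1 and 2.09 in replicate 2. Csnk1a1, which encodes casein kinase 1 alpha, had 2.28 and 2.96, and the histone gene H3c1 had 4.89 and 2.41. Fold enrichment was under 5 in 109 members in replicate 1 and in 112 in replicate 2. The authors' false discovery rate was under 20% for 364 members (53.8%) in replicate 1 and 373 (55.1%) in replicate 2. Its upper quartiles were 32.53% and 35.65%, and its highest values 75.87% and 83.09%. For control-only regions the rate was under 20% in 39.8% and 50.3%, with upper quartiles of 39.48% and 33.17% and highest values of 86.39% and 75.36%.

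A score of at least 3100, the value at which scores pile up in the lists, was reached by 131 members in replicate 1 (19.4%) and 151 in replicate 2 (22.3%), and by 37 in both (5.47%). Among control-only regions 13 of 879 (1.48%) reached it in both libraries. The lists themselves differed in the same way, with 28.5% and 27.8% of all starved peaks at that score against 17.0% and 13.2% of all control peaks. Scores grow with depth, which these files do not give, so the part of depth in this difference was not tested.

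The replicates agreed only loosely on the strength of starved-only regions. Fold enrichments were within 2-fold of each other in 51.3% of starved-only regions and more than 4-fold apart in 20.5%. For regions called in all libraries the same starved replicates were within 2-fold in 57.2% and over 4-fold apart in 15.4%, and the control replicates in 63.9% and 8.2%. The control replicates were within 2-fold in 59.4% of control-only regions. The starved libraries thus agreed less than the control libraries in the regions called throughout as well. The Spearman correlation across regions was 0.401 for starved-only regions, and for all-library regions it was 0.503 between starved and 0.678 between control replicates. Regions of a library share its depth and input, so these are descriptions without a p. Replicate 2 had the higher value in 354 members (52.3%), so neither replicate was stronger throughout.

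Starved-only peaks had about the width usual for their libraries and were narrower than peaks of regions called throughout. Their median width was 372 bp in replicate 1 (quartiles 277 and 566 bp) and 358 bp in replicate 2 (quartiles 267 and 501 bp), a mean of 365 ± 9.9 bp (SD, n = 2). The medians over all peaks of the starved lists were 372 and 364 bp. Control-only peaks measured 347 and 345 bp, and peaks of regions called in all libraries had medians from 510 to 591 bp. The merged starved-only region had a median of 489 bp, against 401 bp for control-only and 883 bp for all-library regions. A union of 4 peaks is wider by construction than a union of 2.

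By the rule, the peaks of both starved libraries had to fall in the same region. In 626 members (92.5%) the replicates' peaks shared at least 50% of the shorter peak, and the median shared part was 100%. Width and strength were unrelated across members, with a Spearman correlation of -0.00742 between mean peak width and the lower fold enrichment. The widest member lay in Plxna1, a semaphorin receptor, and spanned 3012 bp. Its highest peaks in replicates 1 and 2 measured 1271 and 1675 bp, with fold enrichments of 12.5 and 3.25. Together they are shorter than the region, which therefore joined further peaks. The false discovery rate of the replicate 2 peak was 71.77%. Lrrc32, which encodes a cell-surface anchor of latent TGF-beta, had a member of 2726 bp, and Col5a1, a fibrillar collagen chain, had one of 2457 bp. All 3 had a fold enrichment under 13 in both starved libraries.

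**Figure D2:**
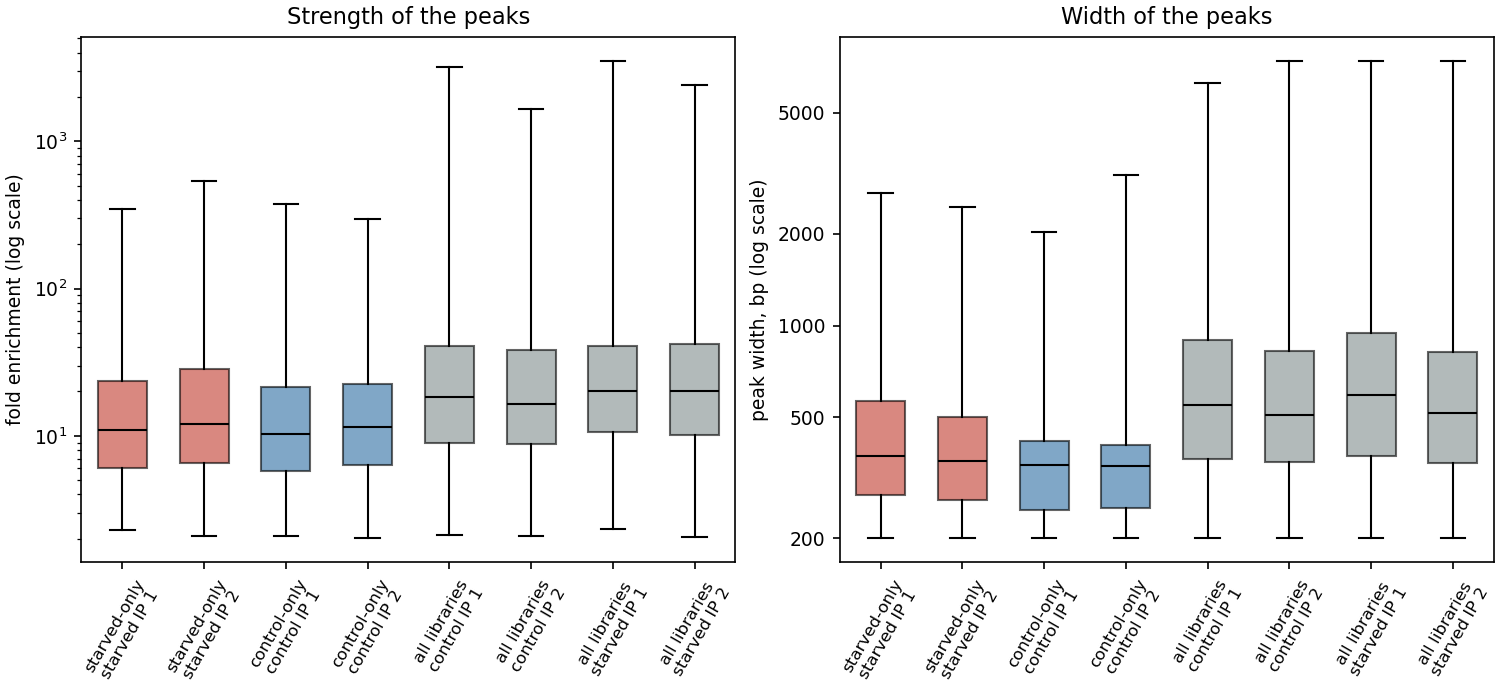
Fold enrichment (left, log scale) and peak width in bp (right, log scale) of the peaks in starved-only, control-only and all-library regions, by library, with boxes from the lower to the upper quartile, a line at the median and whiskers from the minimum to the maximum. Starved-only medians are 10.98 and 12.05 for fold enrichment and 372 and 358 bp for width, close to the control-only medians and below those of regions called in all libraries.

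The rule placed a sharp edge on a graded quantity. Among members, the closest to a control peak were regions of Gcnt2, Kansl1l and Ccsap, at 3, 9 and 12 bp from one. Just outside it were regions of Mllt3, Zcchc2 and Sapcd2, with small overlaps between starved and control peaks. Added over all pairs of a starved and a control peak, these overlaps were 5, 22 and 26 bp. The Ccsap member had 20.74 and 26.01 in the starved libraries. The Sapcd2 region had 39.5 and 83.7 in them and 51.1 in control replicate 1. Of 3477 regions called in both starved libraries and at least 1 control library, 1220 were called in only 1 control library. In 10 of the 3477, the overlaps added over all pairs of a starved and a control peak came to at most 50 bp.

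A control peak lay within 100 bp of 25 members (3.69%), within 500 bp of 103 (15.2%) and within 1000 bp of 158 (23.3%), while the median distance along the genome was 6014 bp. Few condition-restricted calls recurred between replicates in either condition. Of 6336 regions called in at least 1 starved and no control library, 10.7% were called in both, and of 7115 regions called in at least 1 control and no starved library, 12.4% were. A further 2881 regions were called in exactly 2 libraries, 1 of each condition.

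Many starved-only regions were additional calls in transcripts that had a called peak in control cells. Of the 677 members, 468 (69.1%, 95% Wilson interval 65.6 to 72.5) lay in a gene with a control peak elsewhere, close to the 595 of 879 control-only regions (67.7%) in a gene with a starved peak elsewhere. With peaks of a false discovery rate under 20% only, the share was 47.95%. The other 209 members lay in 205 genes (32.0% of 641) with no control peak at all. Their median fold enrichments were 11.56 and 12.53 in the starved replicates, against 10.75 and 11.66 for members in genes with a control peak. The widths were also near each other, at 380 and 361 bp against 365 and 356 bp.

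The genes held regions called throughout as often as all genes with a peak did. In 127 of the 641 genes (19.8%) there was also a region called in all 4 libraries, the same share as over all 9778 genes (1934, 19.8%). The median number of regions per gene was 3 in the starved-only genes and 2 over all genes. A starved-only and a control-only region occurred in the same gene in 51 cases. A peak call also depends on how much of the transcript is present, and levels of the transcripts in the input libraries were not analysed here, so methylation and abundance cannot be told apart.

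Most genes had 1 starved-only region (607), 31 had 2, and 3 had 3. Soga1, which encodes a protein named for restraining glucose production that depends on autophagy, had 13 regions, of which 3 were starved-only, 1 was control-only and 2 were called in all libraries. Its starved-only regions had fold enrichments of 48.5 and 28.8, of 7.13 and 29.8, and of 21.2 and 5.13 in replicates 1 and 2. The first ran from 4183 to 4776 nt after the start of the coding sequence in replicate 1 and the second from 3470 to 3861 nt, both before the stop codon, and the third could not be placed on the coding transcript. Both control libraries called peaks on either side of the first and second regions, from 3075 nt in both and from 6215 and 6084 nt in replicates 1 and 2.

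Hspg2, which encodes the basement membrane proteoglycan perlecan, had 4 regions, of which 3 were starved-only and none was called in a control library. Their fold enrichments were 6.75 and 13.2, 6.45 and 8.51, and 6.56 and 7.41. The last covered the end of the coding sequence and the 3′ UTR and had a width of 1139 bp in both starved libraries. Col5a1 had 5 regions, with 3 starved-only ones at 12.2 and 9.31, 9.75 and 4.35, and 4.86 and 3.95. A coding-sequence peak ended at 5369 nt and the peak over the stop codon and 3′ UTR began at 5370 nt, so these 2 regions adjoin in the spliced transcript and are apart on the genome only by an intron. Counts of regions per gene can thus exceed the number of separate marks.

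**Figure D3:**
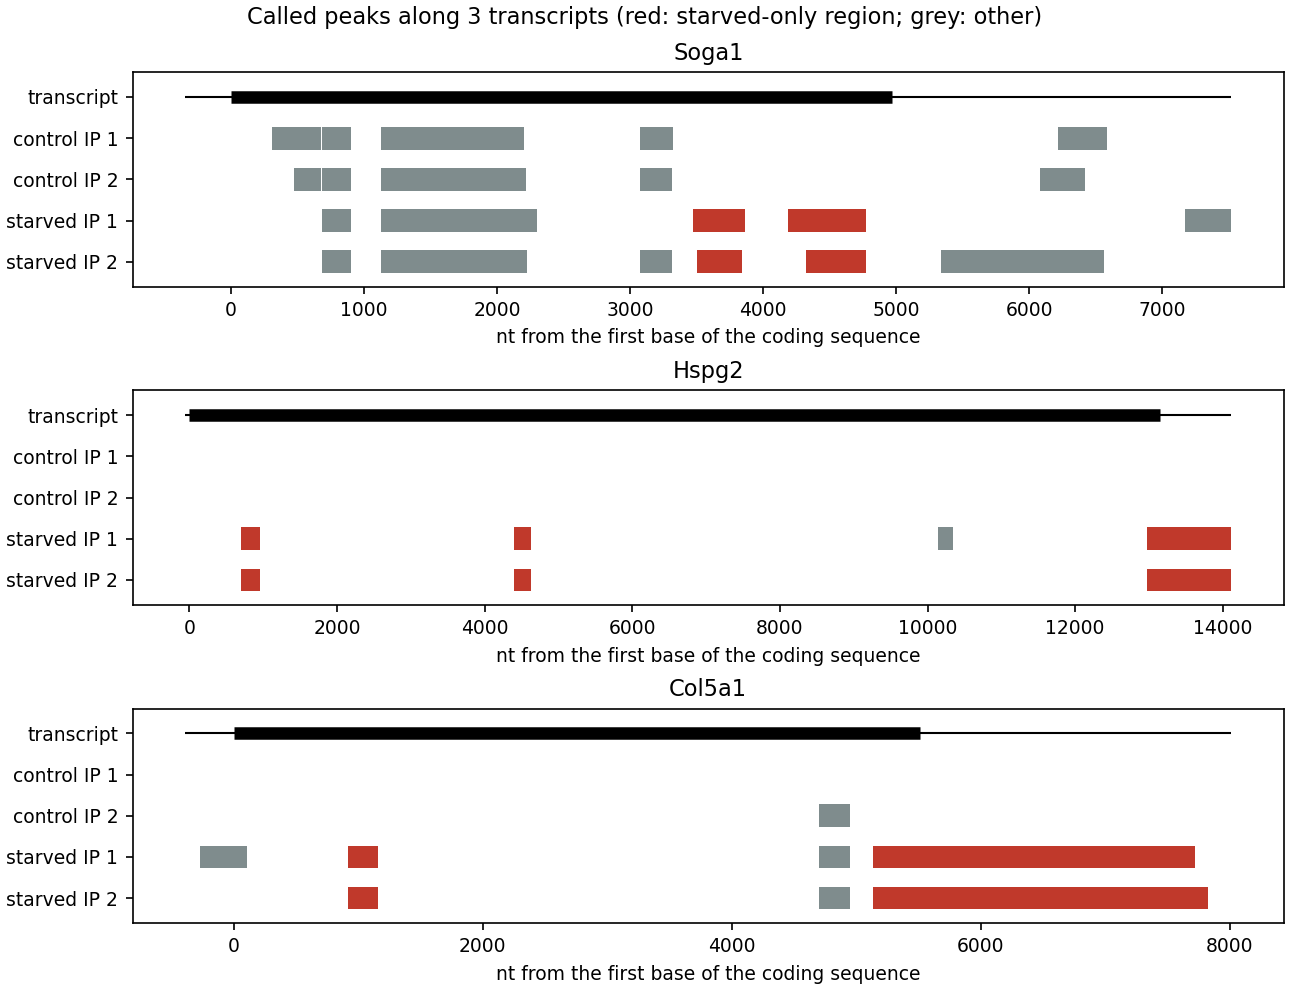
Called peaks of Soga1, Hspg2 and Col5a1 in each of the 4 IP libraries along the spliced transcript, in nt from the first base of the coding sequence, with the coding sequence as the thick black bar. Red marks starved-only regions and grey other regions, and Hspg2 shows no control peak while Soga1 shows control peaks on both sides of its red ones.

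Gm14431 and Spen followed with 2 regions each. Spen, a transcriptional corepressor that acts in X inactivation and Notch signalling, had 10 regions, of which 4 were called in all libraries. Its starved-only ones had 35.9 and 90.9 in the 3′ UTR and 17.9 and 9.97 in coding sequence. Gm14431, a predicted gene, had 90.4 and 199 in one and 74.0 and 142 in the other, but their sequence matched 20 places in the genome. At an identity of at least 95% over at least 90% of the region, 46 members (6.79%) and 54 control-only regions (6.14%) had more than 1 genomic match. These include the regions listed for Rpl29 (19 matches), Hnrnpa1 (10), Ap2m1 (4), Tomm5, Bmi1, Kdm2b, Asxl1, Adam12 and Eef2 (2 each), and their gene of origin is uncertain.

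Coding transcripts could be assigned to 655 members in each starved library, with the middle of the exonic part of the peak as its position. By their stronger peak, 306 members lay in coding sequence, 250 in the 3′ UTR, 35 in the 5′ UTR and 64 in the stop codon window, which reaches 100 nt to either side, and 22 were not placed. The median fold enrichment was 12.5 and 13.2 in coding sequence and 9.38 and 11.4 in the 3′ UTR. The peaks were wider in the 3′ UTR, with medians of 476 and 424.5 bp, than in coding sequence, with 320 and 303.5 bp. Exons of coding transcripts on both strands overlapped 13 members.

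Position was not used to choose the regions, and the segments were compared with the control-only class over libraries. The stop codon window held 9.77% and 10.5% of starved-only peaks and 13.8% and 14.0% of control-only peaks, a difference of -3.71 percentage points. Coding sequence held 47.3% and 46.1% against 43.6% and 44.0%, a difference of 2.92 points. The 3′ UTR held 37.8 ± 0.325% against 37.9 ± 0.361% (SD, n = 2), and the 5′ UTR 5.34% against 4.49%. A two-sided exact permutation test over the libraries gave p = 0.333 for the stop codon window, coding sequence and 5′ UTR and p = 0.667 for the 3′ UTR (0.444 and 0.667 after Benjamini-Hochberg adjustment over the 4 segments). With 2 libraries against 2 the smallest p is 0.333, and both libraries of a group hold the same regions, so the SD understates the error. The difference turned positive, at 0.091 points, in the stop codon window without control replicate 1, and negative, at -2.64 points, in coding sequence without starved replicate 1. In the 5′ UTR it turned negative without control replicate 1 (-2.13 points) and without control replicate 2 (-0.75 points).

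Regions called in all libraries lay further towards the coding sequence (54.2%) and less in the 3′ UTR (30.8%) than starved-only ones. Along a transcript with each segment cut into 10 bins, 8.09% and 8.55% of starved-only peaks fell in the second bin of the coding sequence, against 5.59% and 5.47% of control-only peaks. In the first bin of the 3′ UTR the shares were 7.63% and 7.79% for starved-only, 8.39% and 8.15% for control-only and 10.4% to 10.8% for all-library peaks. At the far end, the last bin of the 3′ UTR held 1.22% of starved-only peaks in both libraries and 2.45% and 3.26% of control-only peaks. These bins were singled out after their values were seen.

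**Figure D4:**
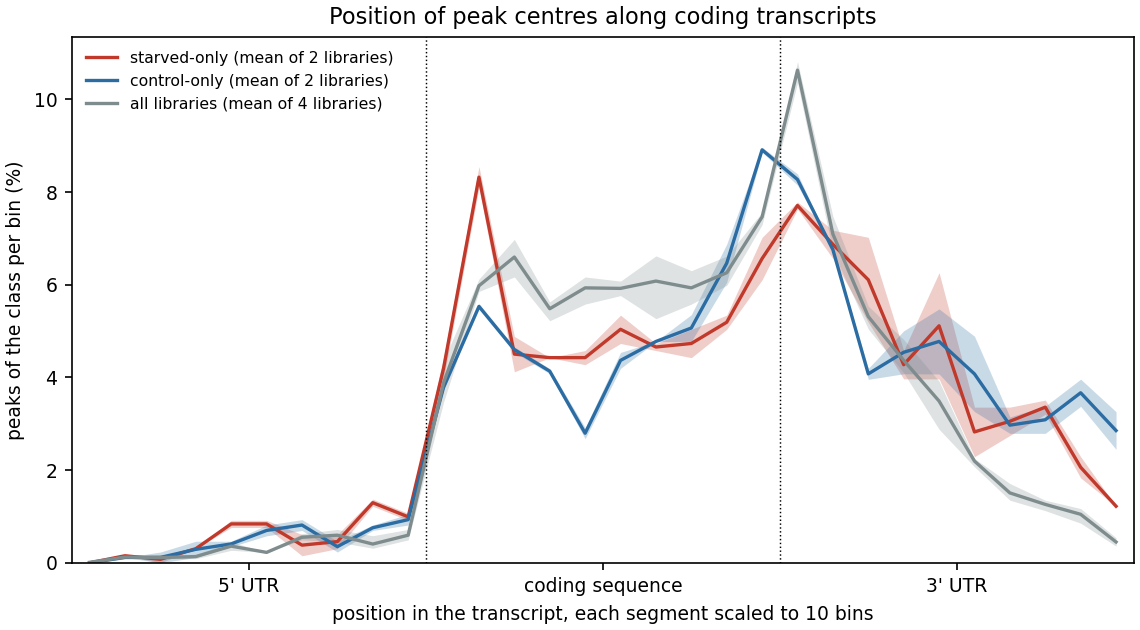
Share of placed peaks in each of 10 bins of the 5′ UTR, coding sequence and 3′ UTR for starved-only, control-only and all-library regions, with lines for the mean over libraries and bands for their range. Starved-only peaks stand above control-only ones in the second coding bin (8.09% and 8.55% against 5.59% and 5.47%) and all-library peaks are highest just past the stop codon.

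GGAC was counted on the sense strand in 200 bp of spliced transcript around the peak centre. It was present in 68.6% and 68.7% of starved-only peaks, in 63.5% and 64.5% of control-only peaks and in 64.9% to 66.9% of all-library peaks. Over the whole lists the shares were 64.4% and 64.7% for starved and 62.1% and 63.5% for control peaks. The difference between starved-only and control-only peaks was 4.62 points (two-sided exact permutation test, p = 0.333, the smallest possible), and the near-identical values within a class come from the same regions. It became -3.27 points without starved replicate 1 and -0.42 points without starved replicate 2, when a starved-only region rests on a single library. For the looser DRACH, the difference was 0.26 points.

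Starved-only peaks lay in the last exon in 57.5 ± 0.113% of cases and control-only peaks in 60.7 ± 0.134% (SD, n = 2), a difference of -3.27 points. Of peaks centred in coding sequence, 53.6 ± 0.856% of starved-only and 50.5% of control-only ones were in an exon of at least 400 bp. The corresponding share was 79.2% for regions called in all libraries. The exact permutation p was 0.333 for both comparisons with control-only peaks. Coding-sequence peaks thus lay in long exons less often in both condition-restricted classes than among regions called throughout.

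Genes were then grouped by 23 lists of named functions, and each list is given by its genes with a peak in any library, beside 6.56% of all genes with a starved-only region and 8.63% with a control-only one. Of the lists, 11 had a starved-only share above 6.56% and 17 had a control-only share above 8.63%. The starved-only share exceeded the control-only share in 3 lists, equalled it in 2 and was lower in 18. No test was run over the lists, many are small, and some genes are in several lists.

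**Figure D5:**
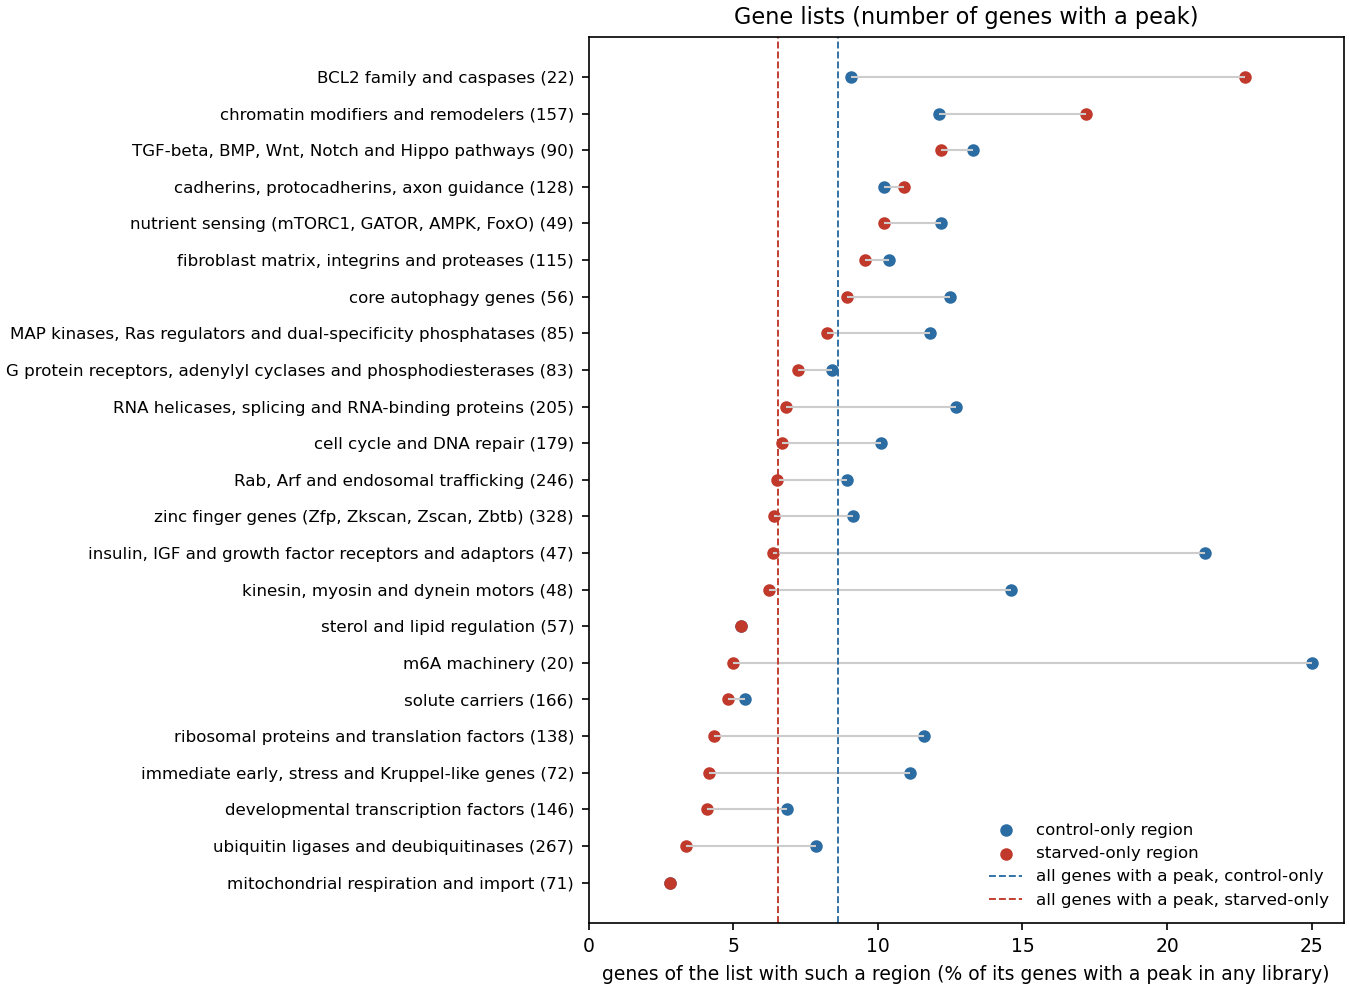
Percentage of the genes of each list that held a starved-only region (red) or a control-only region (blue), among its genes with a peak in any library (number in brackets), with dashed lines at 6.56% and 8.63% for all genes with a peak. Chromatin modifiers (17.2%) and the BCL2 family (22.7% of 22 genes) stand furthest above the red line, and ubiquitin ligases (3.37%) and mitochondrial genes (2.82%) are among the lowest.

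Chromatin modifiers and remodelers were the largest group among the members, with a starved-only region in 27 of 157 genes (17.2%) against a control-only one in 19 (12.1%). These genes had a median of 3 regions each, and by region 27 of 566 (4.77%) were starved-only, beside 3.2% of all regions, and 22 (3.89%) were control-only, beside 4.15%. The highest were Ehmt1, a histone H3 lysine 9 methyltransferase, at 87.1 and 178 with no control peak in the gene, Kat8, a histone H4 lysine 16 acetyltransferase, at 29.5 and 38.7, and Setd1b, a histone H3 lysine 4 methyltransferase, at 47.7 and 28.8. All 3 were in coding sequence, and 4 of the 27 genes had no control peak, beside 32.0% of all genes with a starved-only region. Others covered the range of the class, from Setd1a, the paralogue of Setd1b, at 19.7 and 40.4, to the acetyltransferase gene Ep300 at 38.5 and 5.24 and Setd7, a lysine methyltransferase gene, at 41.2 and 3.63. The last pair were strong in replicate 1 only.

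The BCL2 family and caspases, which set and carry out apoptosis, had 5 of 22 genes with a starved-only region (22.7%) and 2 with a control-only one (9.09%). The 5 were Bmf at 12.1 and 32.5, Bbc3 (Puma) at 63.8 and 11.5, Bcl2l11 (Bim) at 24.9 and 7.58, the anti-apoptotic Bcl2l1 at 7.36 and 12.9 and Bcl2l13, a mitochondrial receptor for mitophagy, at 4.39 and 10.9. Bmf, Bbc3 and Bcl2l11 encode BH3-only proteins, which promote cell death. The Bbc3 region was in the 5′ UTR and the other 4 were in the 3′ UTR. Of the 5 genes, Bmf alone had no control peak. Only the Bcl2l1 values were within 2-fold of each other. In replicate 2 the false discovery rate was 55.86% for Bcl2l11 and 33.82% for Bbc3. The replicates' peaks measured 687 and 622 bp in a merged region of 1159 bp for Bmf. For Bcl2l11 they measured 380 and 370 bp in 642 bp.

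Core autophagy genes stood near the background, with a starved-only region in 5 of 56 (8.93%) and a control-only one in 7 (12.5%). Bmf is counted among the 5 as well as in the BCL2 list. Pik3c3, the catalytic subunit of the lipid kinase complex that acts in autophagosome nucleation, had 34.0 and 255 in the 3′ UTR and no control peak. Wipi2, which binds its lipid product on the growing membrane, had 14.9 and 13.4, and Atg14, a subunit of the same kinase complex, had 7.29 and 4.92. Atg101, a subunit of the ULK1 kinase complex, had 23.9 and 5.47 in the stop codon window. Of the 7 autophagy genes the study singled out, only Bmf held a member. The study chose the 7 by m6A peaks that rose after starvation and overlapped increased binding of YTHDF3, a YTH domain protein. No peak had to be absent from control cells, so a stronger peak at a site called in both conditions could qualify. Foxo3, Zfyve1, Zfyve26, Sesn2, Ddit3 and Ap4m1 had 0 starved-only and 0 control-only regions, with 2 of the 5 Foxo3 regions called in all 4 libraries.

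The nutrient-sensing list, which covers mTORC1, AMPK and their regulators, had a starved-only region in 5 of 49 genes (10.2%) and a control-only one in 6 (12.2%), and 3 of these genes had both. Beside Prkag2 the members included Sesn1, a leucine-responsive inhibitor of mTORC1, at 17.97 and 31.25, Rictor, the defining subunit of mTORC2, at 11.1 and 23.7, and Flcn, a GTPase-activating protein for Rag GTPases, at 4.30 and 9.32. The regions of Sesn1, Rictor and Flcn lay in the 3′ UTR. The insulin and growth factor list had 3 of 47 genes (6.38%) against 10 (21.3%) for control-only regions. Its members were Insr, the insulin receptor, at 16.6 and 78.5, Fgfr2 at 7.83 and 29.4, and Pik3c3. The last is a lipid kinase, neither a receptor nor an adaptor, and is also counted in the autophagy list.

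Of 20 m6A machinery genes with a peak, Virma, a scaffold subunit of the methyltransferase complex, was the only one with a starved-only region (5%), at 16.2 and 57.3 in coding sequence 300 nt before the stop codon. A control-only region was found in 5 (25%). Stress and immediate early genes had 3 of 72 (4.17%) against 8 (11.1%). These 3 were Keap1, the sensor that restrains the oxidative stress factor NRF2, at 47.6 and 31.3, Mafg, a small MAF partner of NRF2, at 26.5 and 30.1, and Mxd4, an antagonist of MYC, at 11.9 and 18.4. All 3 had control peaks elsewhere.

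The matrix list of collagens, integrins and proteases had 11 of 115 genes (9.57%) against 12 (10.4%), but the starved-only regions were bunched in a few long transcripts, 16 of 310 regions (5.16%) against 12 (3.87%). Their median fold enrichments were 5.37 and 5.24, below the 10.98 and 12.05 of all members. Beside Hspg2 and Col5a1 the list held Ltbp1, which anchors latent TGF-beta in the matrix, at 9.86 and 6.57 in a gene with no control peak, and Fn1 at 3.57 and 5.69. Tnc, which encodes the matrix glycoprotein tenascin C, had 2 regions with fold enrichments of 4.55 and 4.79 and of 3.22 and 4.12. The replicates of the Fn1 and Tnc regions were within 2-fold of each other.

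The list of cadherins, protocadherins and axon guidance genes had 14 of 128 (10.9%) against 13 (10.2%). The 14 include Lrrc14b, Lrrc20, Lrrc32 and Lrrc75a, leucine-rich repeat genes outside the families that name the list. Cdh6, a type II cadherin, had 58.9 and 53.7 and Pcdhga4, a clustered protocadherin, 46.5 and 32.4, neither with a control peak, and Flrt1, a cell adhesion protein, had 24.5 and 103. The Pcdhga4 peaks measured 576 and 578 bp in a merged region of 994 bp. The TGF-beta, BMP, Wnt, Notch and Hippo list had 11 of 90 (12.2%) against 12 (13.3%). Lrp5, a Wnt co-receptor, held 2 regions at 16.9 and 51.8 and at 11.7 and 87.9. Bmpr1b, a BMP receptor, had 16.2 and 22.4, and Tead1, the DNA-binding partner of YAP, had 16.4 and 11.7.

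Among signalling lists, MAP kinase genes had 7 of 85 (8.24%) against 10 (11.8%), with the phosphatase Dusp23 at 183 and 82.4, the kinase Map3k2 at 37.6 and 11.6 and Mapk1ip1l at 9.91 and 13.5. G protein receptor and adenylyl cyclase genes had 6 of 83 (7.23%) against 7 (8.43%), with Gpr137 at 72.9 and 77.8 and the adenylyl cyclase Adcy7 at 16.5 and 14.1 beside Gpr85. The cell cycle and DNA repair list had 12 of 179 (6.7%) against 18 (10.1%). Its highest members were Poli, a translesion DNA polymerase, at 288 and 70.1, and the centrosomal genes Cep164 at 55.3 and 28.6 and Cep85l at 22.3 and 67.7. The starved-only shares of all 3 lists were within 2 percentage points of the 6.56% over all genes.

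RNA helicases, splicing and RNA-binding genes had 14 of 205 (6.83%) against 26 (12.7%). No control peak was called in 10 of the 14, beside 32.0% of all genes with a starved-only region. Elavl2, a neuronal-type RNA-binding protein, had 87.7 and 43.9 and Prpf4, a spliceosomal protein, 19.0 and 50.9. Zinc finger genes, the largest list, had 21 of 328 (6.4%) against 30 (9.15%), with Zfp128 at 49.4 and 43.3, Zfp54 at 29.9 and 457 and Zfp688 at 33.9 and 28.5. Developmental transcription factors had 6 of 146 (4.11%) against 10 (6.85%), with Hoxb6 at 24.46 and 26.03 in the 5′ UTR and Gli2, an effector of Hedgehog signalling, at 58.6 and 12.3 in the 3′ UTR. The Zfp54 replicates differed by over 10-fold.

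Genes of endosomal traffic had 16 of 246 (6.5%) against 22 (8.94%). Tbc1d9, which carries a Rab GTPase-activating domain, had 49.8 and 30.7, Rin3, an exchange factor for Rab5, had 73.8 and 28.6, and Zfyve27 had 15.9 and 23.7. Solute carriers had 8 of 166 (4.82%) against 9 (5.42%), among them Slc36a1, a lysosomal amino acid transporter, at 14.3 and 18.2, Slc22a21, a carnitine transporter, at 28.4 and 63.9, and Slc12a7, a potassium-chloride cotransporter, at 11.6 and 19.3. Sterol and lipid genes had 3 of 57 for both classes (5.26%). The starved-only ones included Osbp, a sterol carrier, at 13.7 and 9.18, and Lpin1, a phosphatidate phosphatase, at 5.13 and 4.49.

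Several housekeeping lists held few members. Ubiquitin ligases and deubiquitinases had 9 of 267 (3.37%) against 21 (7.87%), led by Herc4, Usp53 at 48.4 and 176 and Pja1 at 17.8 and 18.4. Ribosomal proteins and translation factors had 6 of 138 (4.35%) against 16 (11.6%), with Eif5b, which joins the ribosomal subunits, at 18.7 and 14.3, Mrpl21, a mitochondrial ribosomal protein, at 9.46 and 15.9 and the uncertain Rpl29 at 10.9 and 13.9. Mitochondrial respiration and import had 2 of 71 in both classes (2.82%), Cox15, needed for haem A synthesis, at 11.9 and 12.5 and Tomm5 at 7.56 and 22.8. Motor proteins had 3 of 48 (6.25%) against 7 (14.6%), with the dynein subunits Dync1li2 at 5.86 and 9.13 and Dync1h1 at 10.1 and 4.87 and the kinesin Kif1c at 13.5 and 3.11.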

How the data were processed

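MeRIP-seq peak lists of 4 IP libraries were analysed, and samples were grouped by their titles. Input libraries were used only as the background of the authors' calls. According to the methods and the submitters' processing notes, reads were trimmed (Cutadapt) and aligned to mm10 (HISAT2 2.0.4), and the authors called peaks in each IP library against its input with MACS2, although the column names are those of an older MACS. Peaks were kept where they overlap mRNA exons.

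Fold enrichment, as deposited, is the ratio of IP over local input signal computed by the authors. The deposited score is minus 10 times the log10 of the p-value, from 50.01 upwards. The authors give the false discovery rate as a percent. A further deposited table holds the authors' own comparison of the groups (fold change, p-value, adjusted p-value and direction) and was not used. The lists give no reads, so depth is unknown, and absence of a call is not absence of m6A. 95% Wilson intervals cover counting of regions only. 0 columns were unmapped.

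Peaks sharing at least 1 bp were joined into regions over the 4 lists. Starts, counted from 0, were raised by 1, and symbols were updated in 1284 of 38705 entries. Where a library had several peaks in a region, the highest was used. Peaks were placed on GENCODE M21 basic coding transcripts (GRCm38), on the listed gene where possible. The members and gene lists were chosen with earlier results of these data known. Regions were ranked by the lower starved fold enrichment, and those named were the 10 highest, the 6 highest in genes without a control peak, the 5 genes with most regions, the 3 highest genes of each list, the 3 widest, the 3 lowest, the 3 on each side of the rule's edge, and the autophagy genes the study singled out. Where a list had 5 or fewer members all could be named, and further genes (Setd1a, Ep300, Setd7, Fn1, Tnc) were chosen after their values were seen. Some genes that this rule names are not reported here. Only position and sequence were tested, by two-sided exact permutation over libraries. Alternatives varied the peak filter, joining rule, motif, stop codon window, libraries and pairing. Python 3.11.15, numpy 2.4.6, pandas 2.3.3, scipy 1.17.1, matplotlib 3.10.9, samtools 1.23.1 and blastn 2.17.0 were used, and the steps were tested on simulated data.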

Additional observations from a re-analysis of the deposited data

How the results depend on the processing

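The number of starved-only regions stayed between 561 and 728 under other peak filters and joining rules. The filters removed control peaks as well, which admits other regions, so a similar number does not mean the same regions. Of the 677 members, 587 reached 4-fold enrichment in both starved libraries. A false discovery rate under 20% was met by 364 in replicate 1 and 373 in replicate 2. Keeping only peaks of at least 4-fold enrichment gave a median fold enrichment of 12.71, a coding sequence difference (starved-only minus control-only, in percentage points throughout) of -0.047 and a 3′ UTR difference of 2.39. A score of at least 100 gave 12.83 and, for the 3′ UTR, 2.40. A false discovery rate under 20% gave a median fold enrichment of 19.71, a width of 453 bp, 47.95% of regions in genes with a control peak elsewhere, a 5′ UTR difference of -0.55 and a 3′ UTR difference of 5.58. Equal numbers of peaks per library and a stop codon window of 200 nt moved the 3′ UTR difference to 2.61 and 0.24. The reported 3′ UTR difference is near 0, so its sign carries little, and the causes of these shifts were not tested.

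Leaving out 1 library at a time gave 1251 to 3724 regions in 1148 to 3117 genes, because a call then needs 1 library fewer: 1344 regions without control replicate 1, 1251 without control replicate 2, 3418 without starved replicate 1 and 3724 without starved replicate 2. Median fold enrichment ran from 12.03 to 13.49, width from 339.0 to 385.5 bp and the share with a control peak elsewhere from 56.99 to 70.8%. The GGAC difference ran from -3.27 to 9.13, and the segment differences from -2.13 to 4.05 (5′ UTR), -2.64 to 6.74 (coding sequence), -4.04 to 0.091 (stop codon window) and -5.25 to 4.58 (3′ UTR). None of the segment or motif differences can pass a threshold with 2 libraries per group. Pairing the libraries by replicate number (replicate block) left the differences as they were, with the GGAC difference at 4.62 and an exact sign permutation p of 0.5, the smallest it allows; nothing in the labels says that a number marks a shared culture.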
